A study of Rattus norvegicus with 16 samples.

Results

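The interleukin-1 family and its inhibitors are represented here by 6 genes, Il1a, Il1b, Il1rn, Il1r1, Il1r2 and Il18. Members were the probe sets whose single gene symbol in the array annotation was one of these names. The rule gave 9 of the 20832 probe sets with 1 symbol, and 6 of the 14218 genes those probe sets cover. Il1r1 has 3 probe sets, Il1a has 2, and the other 4 genes have 1 each.

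Expression was measured on 16 Affymetrix arrays of rat lateral cortex. The animals were male Wistar rats, 8 weeks old. All of them, shams included, had a 4.8 mm opening made in the skull over the right parietal cortex 48 h earlier, followed by either a moderate fluid percussion (3.3 ± 0.3 atm, a pulse of fluid against the exposed dura) or the sham operation. After saline perfusion, polyadenylated RNA was taken from the contused cortex, or the matching sham cortex, at 3, 6, 12 or 48 h. Injured cortex gave 3 arrays at each time. The 3, 6 and 12 h shams, 1 array each, formed 1 control group of 3 (the early shams), as the study's design text states. The single 48 h sham was kept apart, because that text describes it as distinct from the earlier shams. The controls therefore also carry a recent craniectomy, and no unoperated cortex was included. Each array carries an animal number of its own, so p-values measure the spread between these arrays.

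The arrays were deposited as log intensities, here read as log2, from which each probe set's median over the 16 arrays had been subtracted. A value of 0 is thus a gene's own middle array. Differences between arrays can be read, but not levels, detection or one gene's abundance against another's. The tissue could accordingly be checked only by its spread: the mean of 8 neuronal markers lay between -0.233 and 0.15 on all arrays. The mean of 5 choroid plexus markers was less even, at -0.089 to -0.04 in the early shams. It read 0.289, 1.245 and 1.565 on the injured 3 h arrays and 1.418 on injured 12 h replicate 3. Injured 12 h replicate 2 stood apart, with 24 polyA spike-in probe sets averaging -1.69 and an SD over genes of 0.372. Injured 48 h replicate 2 had an SD of 0.387, against 0.199 to 0.31 on the remaining 14 arrays. In cortex pieces, fewer cells of a type and less RNA per cell cannot be told apart.

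Interleukin-1 alpha and beta are separate agonists that bind the same signalling receptor, Il1r1, which recruits an accessory protein, Myd88 and IRAK kinases to activate NF-kB and MAP kinases. The system is restrained at the receptor: Il1rn encodes an antagonist that occupies Il1r1 without signalling, and Il1r2 encodes a decoy receptor that binds the ligand without passing on a signal. Interleukin-18 is a related cytokine with its own receptor and its own soluble inhibitor, Il18bp, and both it and interleukin-1 beta are cut from inactive precursors by caspase-1 in the inflammasome. In injured brain, microglia, infiltrating myeloid cells and vessel cells are known sources or targets of these signals.

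In the RefSeq annotation of assembly GRCr8, Il1a and Il1b are neighbouring coding genes on chromosome 3. Il1rn lies elsewhere on that chromosome beside Il1f10 and the Il36 genes. Il1r2 and Il1r1 lie on chromosome 9 with H3f3al3 between them, followed by Il1rl2, Il1rl1, Il18r1 and Il18rap. Il18 is on chromosome 8. RefSeq start-site sequences matched 5 of the 6 members. The 250 bases before the start are printed for the 2 agonists that rose together at 3 h and for their antagonist, which was not called then. All are written 5′ to 3′ in the direction of the gene. Capitals mark matches to the TATA box (TATAAA), to AP-1 (TGANTCA), to C/EBP (TTNNGNAA) or to NF-kB, searched on both strands.
Il1a: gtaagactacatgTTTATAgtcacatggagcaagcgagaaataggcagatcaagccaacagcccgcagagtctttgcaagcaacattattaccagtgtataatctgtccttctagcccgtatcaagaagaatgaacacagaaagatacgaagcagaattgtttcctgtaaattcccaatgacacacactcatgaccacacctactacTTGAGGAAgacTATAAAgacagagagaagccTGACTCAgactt
Il1b: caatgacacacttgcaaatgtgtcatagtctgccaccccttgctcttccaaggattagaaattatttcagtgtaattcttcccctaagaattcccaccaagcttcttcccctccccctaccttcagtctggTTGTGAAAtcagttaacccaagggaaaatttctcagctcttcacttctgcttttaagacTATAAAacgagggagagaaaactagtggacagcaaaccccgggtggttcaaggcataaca
Il1rn: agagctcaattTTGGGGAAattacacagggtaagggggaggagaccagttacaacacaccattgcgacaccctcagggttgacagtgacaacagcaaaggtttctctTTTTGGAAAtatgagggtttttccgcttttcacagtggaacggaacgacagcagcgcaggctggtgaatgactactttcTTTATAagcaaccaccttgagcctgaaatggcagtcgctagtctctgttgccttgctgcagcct

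The Il1a window is chr3:136990018-136990267 on the minus strand. It holds an AP-1 match 12 to 6 bases before the start, a TATA match at 32 to 27 and a C/EBP match at 43 to 36, with a further TATA match on the opposite strand at 237 to 232. The Il1b window, chr3:137036582-137036831 on the minus strand, holds a TATA match at 60 to 55 and a C/EBP match at 119 to 112. The Il1rn window, chr3:27520072-27520321 on the plus strand, holds C/EBP matches at 239 to 232, 143 to 136 and 142 to 135, the last pair overlapping, and a TATA match on the opposite strand at 64 to 59. For Il1a, Il1rn and Il1r1 the RefSeq gene reaches further upstream than the start used. Of all 33469 such windows, 37.2% hold the C/EBP letters, 12.9% the TATA box, 6.34% the AP-1 letters and 6.33% the NF-kB motif. The NF-kB motif matched in none of the 3 printed windows and matched once in that of Il1r1, on the opposite strand at 135 to 126. The Il18 window matched none of the 4 motifs. A match is a description of letters and not a binding site.

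Agonists came first. At 3 h Il1a and Il1b were 34.2-fold and 35.2-fold above the early shams, while the antagonist, both receptors and Il18 were not called. By 6 h Il1a had fallen steeply, Il1b had not, and the decoy receptor Il1r2 was up 9.6-fold. At 12 h Il1r2 was the highest riser of the family and Il1b was still up, and at 48 h only Il18 was called against the early shams. Calls here are limma tests in 1 model of all groups, at a Benjamini-Hochberg adjusted p under 0.05 over all genes.

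**Figure D1:**
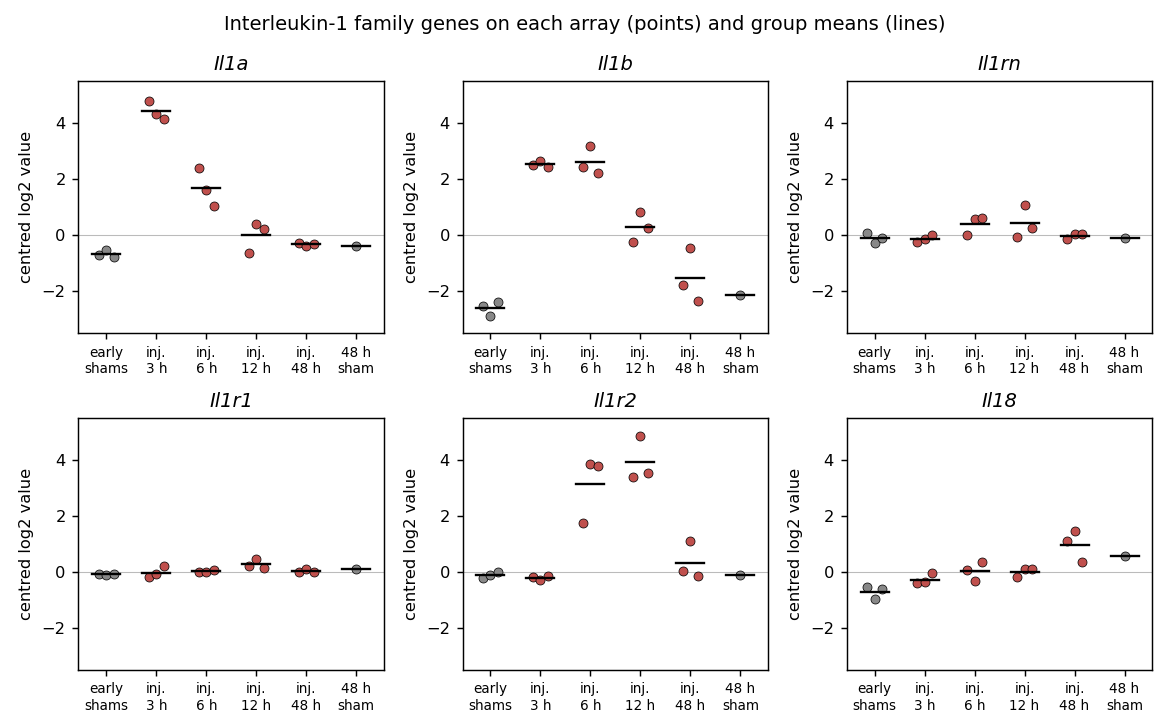
Centred log2 value (vertical axis) of each interleukin-1 family gene on each of the 16 arrays, by group (horizontal axis). Points are arrays, grey for shams, and lines are group means; Il1a and Il1b stand highest at 3 and 6 h, Il1r2 at 6 and 12 h and Il18 at 48 h, while Il1rn and the mean of the 3 Il1r1 probe sets stay within about 1 unit.

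Il1a, an agonist that cells can also release from stores when they are damaged, read 4.80, 4.34 and 4.14 on the 3 injured arrays at 3 h. The early shams read -0.705, -0.53 and -0.775. The groups were far apart, and the mean difference was 5.10 ± 0.302 log2 units (SE, n = 3 and 3), or 34.2-fold (limma adjusted p = 7.94e-07). At 6 h the injured arrays read 2.39, 1.595 and 1.025, all above every sham and below every 3 h array. Il1a was then 5.06-fold above the early shams (log2 2.34, limma adjusted p = 0.000723). The step from 3 to 6 h was a fall of 6.76-fold (log2 -2.757 ± 0.302, limma adjusted p = 0.00081). At 12 h the readings of -0.645, 0.38 and 0.23 overlapped the shams, and the difference of 0.658 was not called (adjusted p = 0.237 by limma). At 48 h the 3 arrays read -0.29, -0.38 and -0.335, around the 48 h sham at -0.375. The order in injured cortex was thus 3 h, 6 h, 12 h and 48 h, with overlap only between 12 and 48 h. Both probe sets gave this course, with correlations of 0.998 and 0.997 to their mean over the 16 arrays, and 3 h differences of 5.56 for 1368592_at and 4.64 for 1371170_a_at.

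Il1b, the agonist made as a precursor that caspase-1 cuts, read 2.50, 2.66 and 2.43 at 3 h against -2.53, -2.89 and -2.40 in the early shams. At 6 h it read 2.44, 3.17 and 2.21, overlapping the 3 h arrays. The differences from the early shams were 5.14 ± 0.39 at 3 h (35.2-fold, limma adjusted p = 1.06e-05) and 5.21 at 6 h (37.1-fold, limma adjusted p = 1.59e-05). The step from 3 to 6 h was 0.077, with a 95% interval from -0.763 to 0.916. At 12 h the arrays read -0.24, 0.81 and 0.24, below every 6 h array and above every sham. Il1b was then 7.34-fold up (log2 2.88, limma adjusted p = 0.000862), and 2.61 without injured replicate 2 (adjusted p = 0.00475). At 48 h it read -1.80, -0.48 and -2.36, a wide spread that held the 48 h sham at -2.15. The fall from 12 to 48 h was 3.52-fold (log2 -1.82, limma adjusted p = 0.00762). That call was lost when only those 6 arrays were fitted (adjusted p = 0.0967).

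The 2 agonists thus shared a start and then parted. At 6 h every Il1a array lay below its 3 h range, while the Il1b arrays overlapped theirs. At 12 h the log2 difference from the early shams was 2.88 for Il1b and 0.658 for Il1a. The difference between the courses was not itself tested.

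Il18, the related cytokine with its own receptor, took another course. It read -0.42, -0.38 and -0.06 at 3 h, 0.06, -0.34 and 0.36 at 6 h, and -0.20, 0.11 and 0.09 at 12 h. The early shams read -0.56, -0.98 and -0.61, below every injured array at all 3 times. The differences of 0.43, 0.743 and 0.717 were nevertheless not called (limma adjusted p = 0.638, 0.147 and 0.115). The 6 h difference was called with quantile normalization (0.653, adjusted p = 0.0409), with array weights (0.764, 0.034) and with only those 6 arrays in the model (0.743, 0.0492). At 48 h Il18 read 1.09, 1.47 and 0.33, and the mean was 3.20-fold above the early shams (log2 1.68 ± 0.244, limma adjusted p = 0.00145). The 48 h sham itself read 0.56, above the third injured array and above all early shams. Against that sham the injured mean differed by 0.403 (95% interval -0.337 to 1.144, limma adjusted p = 0.851). The sham in turn lay 1.28 above the early shams (95% interval 0.536 to 2.02, limma adjusted p = 0.432). The comparison with the early shams thus mixes injury with the later time. Without injured 48 h replicate 2 it gave 1.43 (adjusted p = 0.00507). The rise from 12 to 48 h was 1.95-fold (limma adjusted p = 0.0177). It was not called without injured 48 h replicate 1 (adjusted p = 0.0631) or replicate 2 (0.074), with quantile normalization (0.0581), with a replicate block (0.0533) or with those 6 arrays alone (0.111).

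**Figure D2:**
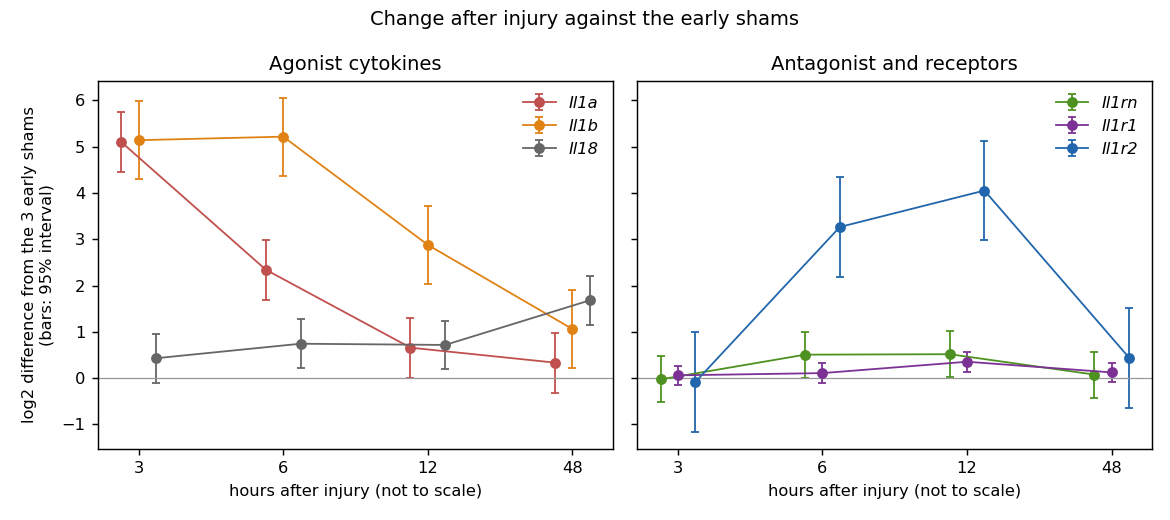
Log2 difference of injured cortex (3 arrays a time) from the 3 early shams at 3, 6, 12 and 48 h (horizontal axis, not to scale), with 95% intervals from limma as bars. Left, the agonist cytokines, with Il1b near 5.2 at 3 and 6 h and Il18 at 1.68 at 48 h; right, the antagonist and receptors, with Il1r2 reaching 4.05 at 12 h.

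Il1rn, the receptor antagonist, was not called in any comparison of the model with all 6 groups. With array quality weights its step from 3 to 6 h was called (0.564, adjusted p = 0.0426), where the model without weights gave 0.533 (0.304). It read -0.25, -0.14 and 0.00 at 3 h, when Il1a and Il1b were both called higher, against 0.06, -0.27 and -0.10 in the early shams. The difference was -0.027, with a 95% interval from -0.525 to 0.472. At 6 h the arrays read 0.00, 0.59 and 0.62, and at 12 h -0.07, 1.07 and 0.24, so that 1 array at each time lay inside the sham range. The differences were 0.507 ± 0.232 at 6 h and 0.517 at 12 h (limma adjusted p = 0.342 and 0.226), and the upper bounds of their 95% intervals, 1.005 and 1.015, came to about a doubling. The highest of these readings came from injured 12 h replicate 2, the array with the low spike-in controls, and without it the 12 h difference was 0.188 (adjusted p = 0.719). At 48 h the readings were -0.15, 0.02 and 0.05.

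Il1r2, the decoy receptor, was as flat at 3 h, with -0.20, -0.28 and -0.17 against -0.24, -0.13 and -0.02 in the early shams. At 6 h it read 1.75, 3.86 and 3.79, and at 12 h 3.39, 4.84 and 3.53, all far above every sham. It was 9.6-fold up at 6 h (log2 3.26 ± 0.501, limma adjusted p = 0.00267) and 16.6-fold up at 12 h (log2 4.05, limma adjusted p = 0.000405). Without injured 12 h replicate 2 the 12 h difference was 3.59 (adjusted p = 0.00201). The rise from 3 to 6 h was 10.2-fold (limma adjusted p = 0.00535), while the step from 6 to 12 h, 0.787, had a 95% interval from -0.291 to 1.864. At 48 h the arrays read 0.02, 1.09 and -0.17, beside the 48 h sham at -0.12. The fall from 12 to 48 h was 12.2-fold (log2 -3.61, limma adjusted p = 0.000645), and no 48 h array reached the 12 h range.

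Il1r1, the receptor that signals, moved little as a gene mean, and its probe sets disagreed. The mean of the 3 read 0.187, 0.443 and 0.147 at 12 h against -0.073, -0.123 and -0.09 in the early shams. These groups were apart, but the difference of 0.354 ± 0.098 was not called (limma adjusted p = 0.0562). It was called without injured 12 h replicate 3 (0.411, adjusted p = 0.0332), and was 0.262 without replicate 2 (0.235). At 3 and 6 h the differences were 0.061 and 0.109. Probe set 1392946_at read 0.57, 1.05 and 0.53 at 12 h against -0.06, -0.28 and -0.34, a difference of 0.943 (limma adjusted p = 0.00774 over all probe sets). It then fell by 0.723 to 48 h (limma adjusted p = 0.0156). In that fit of single probe sets, 2.81% of 20832 were called higher at 12 h and 5.95% lower from 12 to 48 h. The other 2 probe sets, 1369255_at and 1370750_a_at, differed by 0.067 and 0.053 at 12 h and were not called. Over the 16 arrays 1392946_at correlated with the gene mean at 0.905 and the other two at 0.47 and 0.386. Which part of the transcript each probe set reads was not analysed here.

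**Figure D3:**
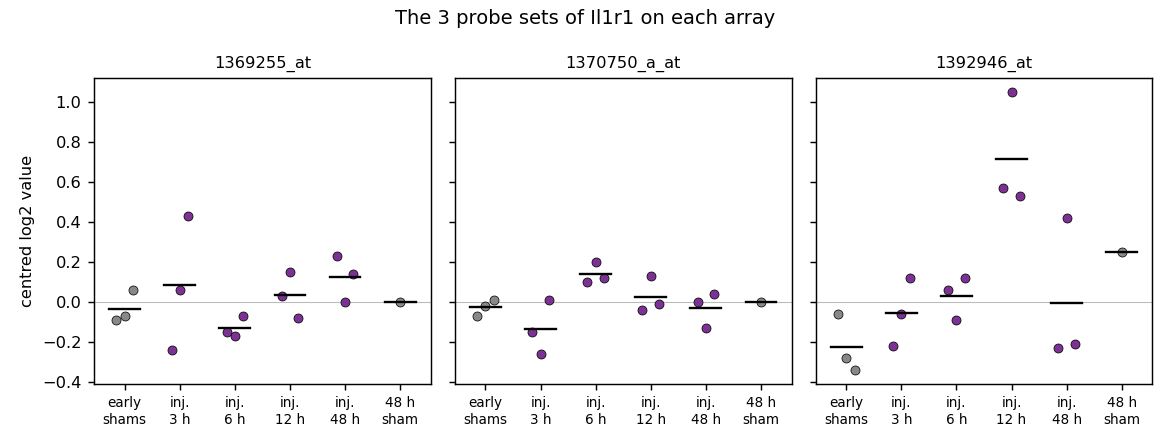
Centred log2 value (vertical axis) of the 3 probe sets of Il1r1 on each array, by group (horizontal axis). Points are arrays, grey for shams, and lines are group means; at 12 h 1392946_at stands between 0.53 and 1.05, while the other two stay near their sham values.

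Against all genes, the members were called as follows. At 3 h 2 of 6 were called higher, where 0.485% of all genes were. At 6 h 3 of 6 were called (1.98% of all genes), at 12 h 2 of 6 (3.49%) and at 48 h against the early shams 1 of 6 (6.37%). These 4 comparisons share the same 3 sham arrays. Of 14218 genes, limma called 0 at 48 h against the 48 h sham (0%), with 1061 at an unadjusted p under 0.05, none of them a member. Between the 48 h sham and the early shams 0.00703% of genes were called, no member among them; at an unadjusted p under 0.05 there was 1 member, Il18. From 3 to 6 h 1 member was called higher (0.795% of all genes) and 1 lower (0.401%). From 6 to 12 h limma called 0 members (0.0141% of all genes), with 3 at an unadjusted p under 0.05. From 12 to 48 h 1 was called higher (8.19%) and 2 lower (7.14%).

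The inhibitors were also set against their agonists within each array, as a log2 difference with the mean of the early shams at 0. Il1rn minus Il1b was -5.253, -5.303 and -4.933 at 3 h and still -2.333, -2.243 and -2.503 at 12 h, against -0.203 to 0.117 in the early shams. Relative to Il1b the antagonist transcript was thus lower on all 9 arrays of 3, 6 and 12 h. This restates the rise of Il1b, and a gene that stayed flat would read the same way. Il1rn itself differed from the early shams by -0.027, 0.507 and 0.517 at those times. Il1rn minus Il1a averaged -5.12 at 3 h and -0.142 at 12 h, where it overlapped the shams. Il1r2 minus Il1b changed sign. It averaged -5.22 ± 0.175 (SD, n = 3) at 3 h and -1.95 ± 1.14 at 6 h, and 1.17 ± 0.37 at 12 h, when all 3 arrays lay above all early shams. At 48 h it averaged -0.617, with the 48 h sham at -0.447. The decoy relative to the signalling receptor, Il1r2 minus Il1r1, averaged 3.15 at 6 h and 3.70 at 12 h, and 0.319 at 48 h. These are changes relative to sham, not ratios of molecules.

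**Figure D4:**
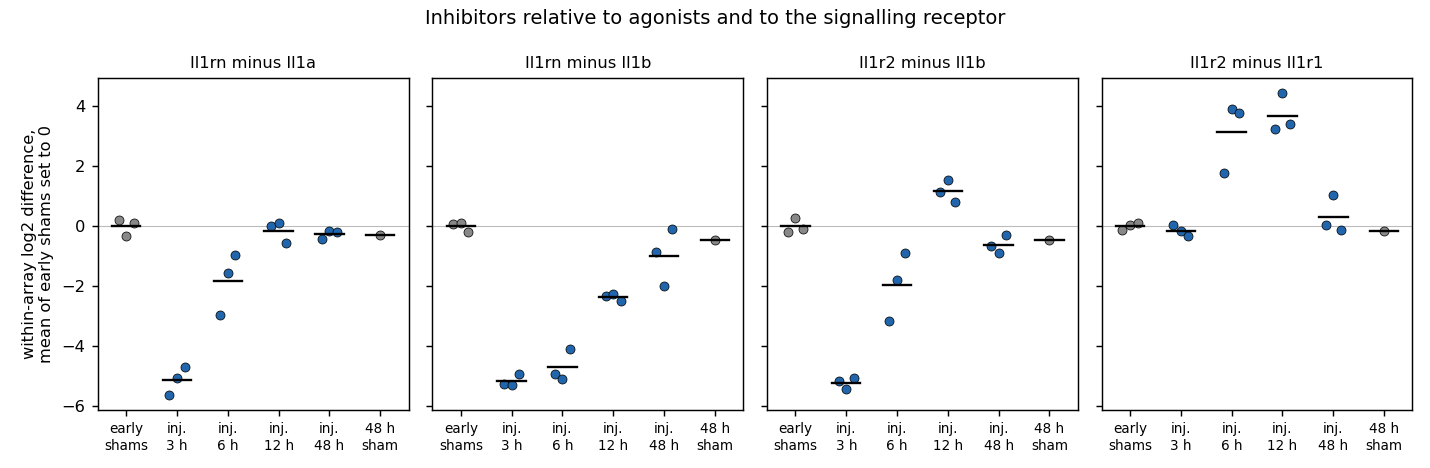
Within-array log2 difference (vertical axis) of the antagonist or the decoy receptor from an agonist or the signalling receptor, by group (horizontal axis), with the mean of the early shams set to 0. Points are arrays, grey for shams, and lines are group means; Il1r2 minus Il1b runs from about -5.2 at 3 h to 1.17 at 12 h, while Il1rn minus Il1b is still -2.36 at 12 h.

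The wider family and its pathway were read from 4 lists of genes, by counts of called genes. The counts of these and the later marker lists stand beside the shares over all genes. Against the early shams 0.485% of all genes were called higher at 3 h, 1.98% at 6 h, 3.49% at 12 h and 6.37% at 48 h. From 12 to 48 h 7.14% were called lower. Of 15 listed relatives and co-receptors 8 were measured, and 1 was higher at 6 h, 2 at 12 h and 1 at 48 h against the early shams. Il18bp, the soluble inhibitor of interleukin-18, read 0.94, 0.30 and 0.36 at 12 h against -0.38, -0.65 and -0.66 in the early shams. It was 1.75-fold up at 6 h (limma adjusted p = 0.00691), 2.14-fold at 12 h (0.000612) and 1.52-fold at 48 h (0.0188). At 48 h the call did not hold when injured replicate 2, the 6 h sham or the 12 h sham was left out (highest adjusted p = 0.0819). Il1rap, the accessory chain that Il1r1 needs to signal, read 0.295, 1.135 and 0.02 at 12 h against -0.175, -0.535 and -0.34 in the early shams. It was 1.78-fold up (log2 0.833, limma adjusted p = 0.0371). Without injured replicate 2, its highest array and the one that stood apart, the difference was 0.508 and not called (adjusted p = 0.0729), and the call was also lost without any 1 of the shams (up to 0.147).

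Of 17 listed genes of precursor processing and release, 11 were measured, and limma called 0 at 3 h (0 also at an unadjusted p under 0.05), 1 at 6 h, 1 at 12 h and 6 at 48 h against the early shams. Casp4, the caspase of the non-canonical inflammasome, was the early one. It read 1.02, 0.90 and 0.66 at 12 h against -1.24, -1.27 and -1.29, a 4.37-fold difference (limma adjusted p = 2.81e-05). Pycard, the inflammasome adaptor, was 4.17-fold up at 48 h (limma adjusted p = 0.00481) and Casp1, which cuts both precursors, 2.57-fold (0.017). The Casp1 call did not hold when injured 48 h replicate 2, the 3 h sham or the 12 h sham was left out (highest adjusted p = 0.072). As with Il18, the 48 h sham lay above the early shams in all 3, by 1.31 for Pycard, 1.28 for Casp1 and 1.08 for Casp4 in log2, none of them called.

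Of 25 listed genes of receptor signalling 23 were measured, and 2, 6 and 7 were higher at 3, 6 and 12 h. At 48 h limma called 0 against the early shams, with 7 at an unadjusted p under 0.05. Nfkb1 and Nfkb2, which encode NF-kB precursors, were up 1.89-fold and 1.75-fold at 3 h (limma adjusted p = 0.0123 and 0.0121). Neither call held when injured 3 h replicate 2 or 3 was left out, nor that of Nfkb2 on leaving out either the 6 or the 12 h sham (highest adjusted p = 0.0812). Myd88, the adaptor shared with toll-like receptors, was up 2.91-fold at 6 h (limma adjusted p = 0.0113) and 3.56-fold at 12 h (0.00312). Its 6 h call did not hold on leaving out injured replicate 1 or 2 or either of the 3 and 6 h shams (highest adjusted p = 0.0554). The median over the list was near 0 at all these times (0.057, 0.063 and 0.06), against -0.01 to -0.0217 over all genes.

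All 22 listed genes that interleukin-1 is known to induce were measured. Of these 9, 14 and 11 were higher at 3, 6 and 12 h, and 3 at 48 h against the early shams. Their median differences were 1.15, 1.35, 1.06 and 0.166. From 12 to 48 h 10 of them were lower. Cxcl2, a neutrophil chemokine, ran 27.6-fold up at 3 h, 18.9-fold at 6 h and 3.42-fold at 12 h (limma adjusted p = 9.31e-05, 0.000163 and 0.0374). The 12 h call was lost without injured replicate 2 (log2 1.21 in place of 1.77, adjusted p = 0.144), without replicate 3 or without any 1 of the shams (0.0527 to 0.126). Ccl2, a monocyte chemokine, was 141-fold up at 6 h and 85.6-fold at 12 h (limma adjusted p = 0.000163 and 0.000324). Lcn2, a siderophore-binding acute phase protein, was not called at 3 h and reached 51.7-fold at 12 h. It was still 49.1-fold above the early shams at 48 h (limma adjusted p = 1.86e-05 and 0.00011). The 48 h sham read -2.36 for Lcn2, above the early shams at -4.83 to -3.61. The injured 48 h arrays lay higher again, at 1.32 to 1.77. The 49.1-fold difference thus mixes injury with the later time. These genes also respond to other signals, and which of them drove any change was not tested.

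Leukocyte markers moved with some members. Of 11 listed neutrophil markers 6 were measured. Their mean lay between -0.41 and -0.232 at 3 h, beside the early shams at -0.517 to -0.228, between 0.965 and 2.102 at 6 h and between 1.573 and 2.127 at 12 h. At 48 h it lay between -0.157 and 1.098. On the arrays where Il1r2 read lowest at 6 h (1.75), highest at 12 h (4.84) and highest at 48 h (1.09), the neutrophil mean was 0.965, 2.127 and 1.098, also the lowest or highest of its group. The last pair are the 12 and 48 h arrays that stood apart. The order did not match within every group: at 12 h Il1r2 was lowest on replicate 1 (3.39) and the neutrophil mean on replicate 3 (1.573), and at 3 h their lowest arrays differed too. Called higher were 2 of 6 markers at 6 h and 3 at 12 h. S100a8 and S100a9, the calprotectin genes that neutrophils hold in abundance, were up by 4.17 and 5.58 in log2 at 6 h. From 12 to 48 h S100a8 fell by 3.57 and S100a9 fell by 4.09. These 2 carry much of the list's mean, and its median difference was 0.647 at 6 h, 1.31 at 12 h and -0.643 from 12 to 48 h. Cxcr2 also fell in that step (log2 -1.05, limma adjusted p = 0.0279), whereas Csf3r differed by 0.04, Mmp8 by -0.02 and Camp by -0.237, none called. Csf3r, a growth factor receptor of granulocytes, was called higher at 48 h against the early shams instead (log2 1.497, limma adjusted p = 0.0368). The part of these cells in the Il1r2 result was not tested.

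Monocyte and macrophage markers, 11 of 11 measured, had 5 called higher at 48 h against the early shams, and microglial markers, 9 of 12 measured, had 6. The macrophage mean lay between 0.168 and 1.699 at 48 h, with the 48 h sham at 0.112 and the early shams between -0.44 and -0.416. It had already lain between -0.153 and 0.442 at 6 h and between 0.109 and 0.816 at 12 h, overlapping 48 h. The lowest and highest of the 3 injured 48 h readings of the macrophage mean fell on the arrays with the lowest and highest Il18 (0.33 and 1.47). The microglial and neutrophil means were lowest and highest on the same arrays, so the order does not single out macrophages. The highest was injured 48 h replicate 2, which stood apart. The microglial mean lay between 1.135 and 1.563 at 48 h, with the 48 h sham at 0.549 and the early shams between 0.17 and 0.323. From 12 to 48 h 9 of 9 microglial markers were higher, but only 1 of 11 monocyte and macrophage markers (8.19% of all genes). In the same step 5 of 8 endothelial markers were higher and 1 was lower. Of meningeal and fibroblast markers 5 of 7 were higher, and of astrocyte markers 3 of 6, so a rise in that step was not particular to microglia. At 3 h, when both agonists were called, limma called 0 of 9 microglial markers (2 at an unadjusted p under 0.05). At 6 h 3 of them were lower (0.682% of all genes), and at 12 h, when Il1b but not Il1a was called, 4 were (1.38%). The part of these cells in the Il18 and agonist results was not tested.

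Other marker lists moved as well. Of 8 endothelial markers 4 were lower and 1 higher at 6 h, and 2 were lower and 1 higher at 12 h. Of 7 meningeal and fibroblast markers 3 were lower at 6 h and 4 at 12 h. Of 4 erythrocyte markers 1 was higher at 3, 6 and 12 h, 2 of 6 astrocyte markers were lower at 12 h, and 1 of 8 neuronal markers was lower at 12 h. Of 5 choroid plexus markers limma called 1, lower from 12 to 48 h (7.14% of all genes). Against the early shams 0.485% of all genes were higher at 3 h. At 6 h 0.682% were lower and 1.98% higher, and at 12 h 1.38% were lower and 3.49% higher.

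**Figure D5:**
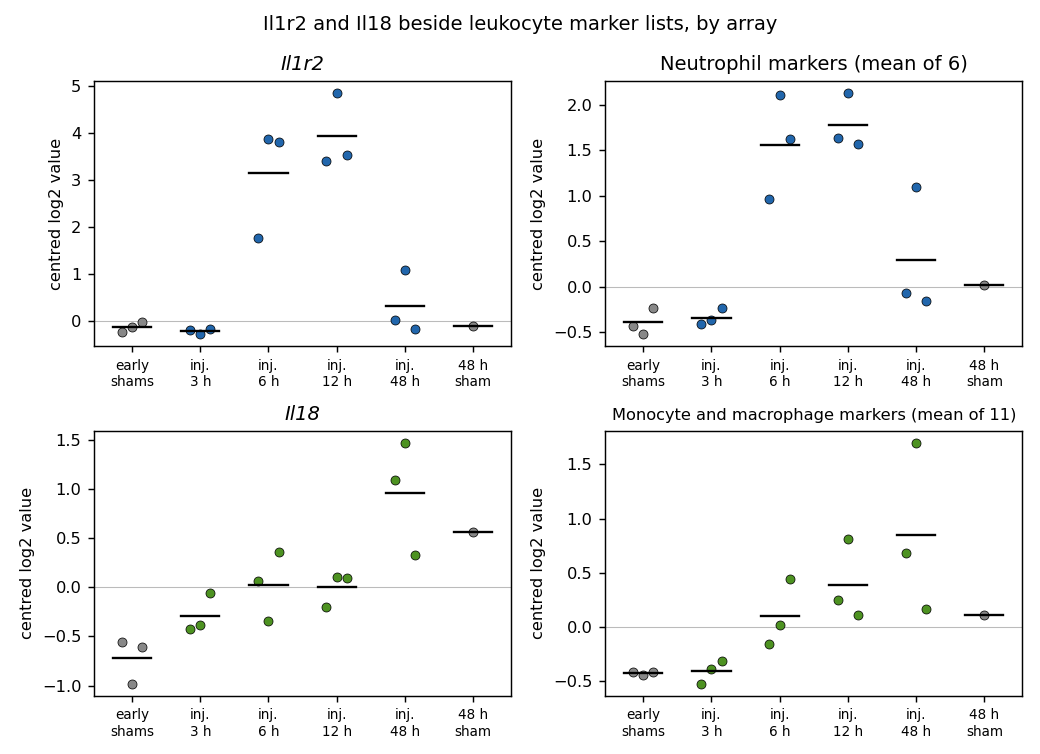
Centred log2 value (vertical axes, scales differ) of Il1r2 and Il18 on each array beside the mean of 6 neutrophil markers and of 11 monocyte and macrophage markers, by group (horizontal axis). Points are arrays, grey for shams, and lines are group means; Il1r2 and the neutrophil mean are both highest at 6 and 12 h, and Il18 and the macrophage mean both highest at 48 h.

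Each member was also matched to the 3 genes outside the family whose values were most like its own, by Pearson's r over the 16 arrays, which share tissue pieces and processing. This is a description of likeness and was not tested. Il1a was most like the chemokine gene Ccl4 (0.934), the plasminogen activator gene Plat (0.925) and Tnf (0.924). Il1b was most like Tnfaip3 (0.982), an inhibitor of NF-kB signalling, the adhesion gene Icam1 (0.976) and the chemokine gene Ccl3 (0.972). The decoy Il1r2 was most like S100a8 (0.975), the chemokine receptor gene Ccr1 (0.971) and the vessel gene Angpt2 (0.962). Il18 was most like Rac2 (0.939), a GTPase of blood cells, the Fc receptor gene Fcgr3a (0.937) and Necap2 (0.926). The closest genes to Il1rn, whose range was narrow, were Nfe2 (0.91), Ucn2 (0.909) and Cxcr2 (0.904), a neutrophil chemokine receptor. Those of the Il1r1 mean were Tsku (0.902), Taf4 (0.878) and Bbln (0.868). S100a8 and Cxcr2 are themselves on the neutrophil list. Among the members, Il1a and Il1b stood at 0.815 and Il1rn and Il1r2 at 0.821, whereas Il1a and Il1r2 stood at -0.139.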

How the data were processed

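The authors deposited log2 values (a base read in here, since none is named) made with RMA, per the submitters' processing notes. In the deposited table all 31099 probe sets had its median over the 16 arrays subtracted (every median was found to be 0, with values -5.64 to 5.98). No genome build is given in the sources used here. The platform annotation gave 20832 probe sets 1 gene symbol, 436 several and 9831 none (57 controls included). Only those with 1 symbol were used, and symbols were updated through RefSeq for 20764 by gene identifier and 2 by accession, with 66 kept. Probe sets of a gene were averaged, giving 14218 genes. limma 3.58.1 in R 4.3.3 fitted 1 linear model of 6 groups to all arrays (10 residual and 3.69 prior degrees of freedom), with Benjamini-Hochberg adjustment over all genes. Calls need an adjusted p below 0.05. The lone 48 h sham takes its spread from the other groups. The scripts' test was checked on simulated data.

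The members, lists and tests were chosen with earlier results of these data known. All members are named, with up to 3 called genes of each pathway list, by the largest absolute difference in any comparison of injury with sham, and the 3 genes most like each member. The neutrophil markers were named after their values were seen. Alternatives were other probe set summaries, 2 further normalizations, array weights, a 2-fold minimum, fewer arrays in the model, other controls, a replicate block and leaving out each array in turn. No 2 arrays were duplicates (closest root mean square difference 0.202). Arrays have no read depth, and their number limits the precision. Promoter sequences are from RefSeq, build GRCr8. Figures were drawn with matplotlib 3.10.9.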

Additional observations from a re-analysis of the deposited data

Results flagged for a closer look

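Several members changed between times in injured cortex by a test of the difference itself, a limma contrast of 3 arrays with 3 that needs no sham. From 3 to 6 h Il1a changed by -2.757 (adjusted p = 0.00081) and Il1r2 by 3.35 (adjusted p = 0.00535), in opposite directions. From 12 to 48 h Il1b changed by -1.817 (adjusted p = 0.00762), Il1r2 by -3.607 (adjusted p = 0.000645) and Il18 by 0.963 (adjusted p = 0.0177). In Il1a, Il1b and Il1r2 the arrays of the times compared did not overlap in these steps, nor did they in Il18. The steps were picked because they were called, so this separation adds no further evidence. Its share over all genes is not given here. The Il18 step was the one lost under the most alternatives. With only the 6 compared arrays fitted, neither the Il1b nor the Il18 step was called (limma adjusted p = 0.0967 and 0.111).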

How the results depend on the processing

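Of 759 recomputed log2 differences of the members, 702 kept their direction and side of the threshold. Many of them could hardly change, so the count does not measure robustness. Most were uncalled in the main model. For the 4 genes with 1 probe set, the probe set alternatives repeat the same differences. Centring each array on its median moved little, as those medians were -0.01 to 0.01. The members' calls at 3 h held under every alternative run, single sham included. With the single sham of the same time as control, members called fell from 3 to 1 at 6 h and from 2 to 0 at 12 h, as Il1a and Il1r2 at 6 h (adjusted p = 0.0792 and 0.136) and Il1b and Il1r2 at 12 h (0.0852 and 0.0503) were lost. With all 4 shams as control, 1 member, Il18, was called at 48 h (1.36, adjusted p = 0.0194) where 0 were against the 48 h sham.

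The replicate number did not pair arrays: 1 of 6 correlations per number was over 0.1 (range -0.188 to 0.257). With a replicate block in the injured arrays, 1 member (Il1b, adjusted p = 0.033) was called from 6 to 12 h in place of 0, as with quantile normalization and with array weights, and the Il18 step from 12 to 48 h was lost. The block called 79 genes from 3 to 6 h. The injured arrays alone without a block gave 97, and the model of all groups, shams included, gave 170. In the same order, the counts were 3, 2 and 2 from 6 to 12 h. From 12 to 48 h they were 1657, 1807 and 2180. Without 1 array the 6 to 12 h count ranged from 0 to 1 (1 without injured 6 h replicate 3, 12 h replicate 2 or 12 h replicate 3), and the count at 48 h against the early shams from 1 to 2 (2, with Il1b at 1.467, without injured 48 h replicate 3). Array weights also gave 2 there. Fitting the compared arrays alone left 1 member (Il1r2) from 12 to 48 h in place of 3.

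Il18 at 6 h was gained with quantile normalization, array weights or the compared arrays alone, Il1rn from 3 to 6 h with array weights, and Il1r1 at 12 h without injured 12 h replicate 3, where the report gives their values. Il1r1 was also gained when 1392946_at, its probe set with the largest SD, stood for the gene. The difference was then 0.943 at 12 h (limma adjusted p = 0.00726) and -0.723 from 12 to 48 h (0.0145). For the named list genes, S100a8 and S100a9, leaving out each array, an alternative chosen after seeing the data, lost the call in 58 of 270 fits over 45 called comparisons.

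Differences that changed sign were all uncalled. Il1a at 48 h against its sham was -0.163 in probe set 1368592_at. With quantile normalization Il18 at 48 h against its sham was -0.019, Il1b from 3 to 6 h -0.137 and Il1rn from 6 to 12 h -0.221; with array weights Il1rn was 0.020 at 3 h and -0.176 from 6 to 12 h. In Il1r1, 1370750_a_at gave -0.107 at 3 h, -0.003 at 48 h and -0.113 from 6 to 12 h, and 1369255_at gave -0.097 at 6 h, 0.123 at 48 h against its sham, -0.213 from 3 to 6 h and 0.090 from 12 to 48 h. With all 4 shams Il1r1 was 0.080 at 48 h, and with the single sham Il1r2 was 0.023 at 3 h. Leaving out 1 array at a time, Il1rn ranged from -0.11 to 0.055 at 3 h, -0.007 to 0.158 at 48 h against the early shams, -0.080 to 0.085 in the 48 h sham and -0.318 to 0.252 from 6 to 12 h. Il1r1 ranged from -0.049 to 0.146 at 3 h and -0.037 to 0.158 from 3 to 6 h, Il1b from -0.205 to 0.275 from 3 to 6 h, Il18 from -0.21 to 0.140 from 6 to 12 h and Il1r2 from -0.045 to 0.065 in the 48 h sham. The causes were not tested.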
